A study of Mus musculus with 6 samples.

Results

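The 10 genes described here are transcripts whose introns hold small nucleolar RNAs (snoRNAs): Gas5, Snhg1, Snhg5, Snhg6, Snhg16, Snhg12, Snhg3, Snhg8, Snhg15 and Snhg4. They were taken by symbol from the deposited expression table and make up 11 of its 54347 rows, since Snhg4 stands on 2 rows. The genes were picked because the Snhg family was lower in Plcg2-/- than in Plcg2+/+ microglia, so their values between genotypes are given as a description without p-values. Nothing is read from a count of calls among them, which is printed beside that of all genes for the fit reported and for the replicate block. The samples were 3 libraries of Plcg2-/- and 3 libraries of Plcg2+/+ cultured microglia from C57BL/6 littermates that lacked or kept both copies of Plcg2, which encodes the phospholipase C gamma 2 of immune cells. In both genotypes forebrains of pups aged 2 to 3 days gave mixed glial cultures, in 10% serum with 5 ng/mL of the growth factor GM-CSF. On day 12 to 13 the microglia were shaken off the astrocyte layer and then kept for at least 72 h in 1% serum with 0.5 ng/mL GM-CSF. RNA was polyA selected and read in 150-bp pairs, with a stated yield of about 20 M reads per sample. Whether replicates came from separate animals or cultures is not stated, so a p-value reflects only how far the libraries of a genotype differed from each other, and that spread may be technical. Values are TPM, the relative abundance of a transcript per unit of its length, scaled to sum to 1000000 in each library, so the depth behind a value is unknown.

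A snoRNA host gene is transcribed by RNA polymerase II and spliced, and the snoRNAs are trimmed out of its introns. Box C/D snoRNAs guide the 2'-O-methylation of ribosomal RNA, box H/ACA snoRNAs guide its pseudouridylation, and a few take part in cutting the precursor. In many hosts of this family the spliced exons encode no known protein, are engaged by ribosomes and are removed by nonsense-mediated decay, and the transcript starts in a terminal oligopyrimidine (TOP) tract like that of the ribosomal protein mRNAs, whose translation depends on mTOR. A polyA library reads the spliced or polyadenylated host and not, in the main, the snoRNA.

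The snoRNAs show what each host carries. GENCODE M21 (GRCm38) places 33 snoRNA loci in the 10 genes on the host's strand: 9 in Gas5, 8 in Snhg1, 4 in Snhg12, 3 in Snhg16, 2 each in Snhg3, Snhg4 and Snhg5, and 1 each in Snhg6, Snhg8 and Snhg15. Snord80 of Gas5 and Snora16a of Snhg12 are each annotated as 2 overlapping entries, counted here as 1 locus. These include 1 locus of Gas5 and 1 of Snhg4 that are typed as snoRNA but carry the microRNA names Mir5117 and Mir1949. A box C (TGATGA in the first 20 bases) together with a box D (CTGA in the last 15) was found in 16 of the 33, against 305 of all 1507 annotated snoRNAs (20.2%). The 1507 are counted entry by entry, without merging overlaps. The ACA that ends 3 bases before the 3' end, the mark of the H/ACA class, was found in 6 of the 33, against 276 of the 1507 (18.3%), and 11 had neither. The windows were set after the sequences had been seen, only the snoRNA's own strand was searched, and the letters do not show that a site is used. The C/D sequences below, with boxes C and D in capitals, come from the hosts Gas5 (Snord47 at chr1:161038082-161038158 and Snord80 at chr1:161037601-161037681, plus strand), Snhg5 (Snord50b at chr9:88521797-88521868 and Snord50a at chr9:88521529-88521600, minus strand), Snhg6 (Snord87 at chr1:9942463-9942549, minus strand) and Snhg12 (Snord99 at chr4:132310691-132310764, plus strand).
Snord47: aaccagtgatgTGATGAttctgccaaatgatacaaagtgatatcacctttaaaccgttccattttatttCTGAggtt
Snord80: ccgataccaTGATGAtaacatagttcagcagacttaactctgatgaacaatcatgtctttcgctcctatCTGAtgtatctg
Snord50b: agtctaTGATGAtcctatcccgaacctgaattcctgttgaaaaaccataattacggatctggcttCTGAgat
Snord50a: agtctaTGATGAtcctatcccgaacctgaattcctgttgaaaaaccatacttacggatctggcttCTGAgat
Snord87: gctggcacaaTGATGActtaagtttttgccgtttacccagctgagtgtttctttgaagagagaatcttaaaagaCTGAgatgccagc
Snord99: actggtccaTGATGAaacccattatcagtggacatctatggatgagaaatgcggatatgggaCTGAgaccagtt
The Snhg5 pair, each 72 bases long, differs by 1 substitution, A50C, counted from 1 at the 5' end with the base of Snord50b first.

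The H/ACA sequences are longer, and their capitals mark the ACA. Snora24 lies in Snhg8 (chr3:123507937-123508066, minus strand), Snora61 in Snhg12 (chr4:132310240-132310369, plus strand) and Snora9 in Snhg15 (chr11:6528033-6528165, minus strand).
Snora24: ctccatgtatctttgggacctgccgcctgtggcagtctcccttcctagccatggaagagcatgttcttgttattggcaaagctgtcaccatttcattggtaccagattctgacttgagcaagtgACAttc
Snora61: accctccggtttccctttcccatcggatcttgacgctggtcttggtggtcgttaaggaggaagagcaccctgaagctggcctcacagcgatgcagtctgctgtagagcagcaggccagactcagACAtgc
Snora9: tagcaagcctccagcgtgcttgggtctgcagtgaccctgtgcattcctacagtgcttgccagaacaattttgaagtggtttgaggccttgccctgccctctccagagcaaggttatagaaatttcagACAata
By these sequences and the names of the loci, Gas5, Snhg1, Snhg5, Snhg6 and Snhg16 hold box C/D snoRNAs, Snhg12 holds both classes, and Snhg3, Snhg8, Snhg15 and Snhg4 hold H/ACA snoRNAs. In the table, 30 of the 33 loci were listed at 0 TPM in all 6 libraries. The exceptions were in H/ACA hosts. Snora73a of Snhg3 stood at 2.38, 2.16 and 8.71 TPM in the Plcg2-/- libraries and at 2.56, 3.33 and 0 TPM in the Plcg2+/+ ones. Snora73b was above 0 in 1 Plcg2-/- library (4.11 TPM), and Snora74a of Snhg4 in 1 Plcg2-/- (5.08 TPM) and 1 Plcg2+/+ library (3.03 TPM). Most loci, 30 of 33, lie inside an exon of at least 1 annotated transcript of the host, such as one that keeps the intron, so a read over the snoRNA can also be assigned to the host.

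Gas5 (chr1:161034422-161038539, plus strand, 25 annotated transcripts), whose RNA also binds the glucocorticoid receptor in human cells, was by far the most abundant member. It had 234, 241 and 209 TPM in Plcg2-/-, against 288, 212 and 278 TPM in Plcg2+/+ libraries. Plcg2+/+ replicate 2 lay within the Plcg2-/- range and the other 2 above it, so the groups overlapped. The means were 228 ± 16.8 TPM in Plcg2-/- and 259 ± 41.6 TPM in Plcg2+/+ (SD, n = 3 each), a difference of -0.17 ± 0.15 (SE) on the log2(TPM + 1) scale used for all differences below, Plcg2-/- minus Plcg2+/+, which understates the change of low genes. Gas5 made up 46.8% ± 0.309 of the summed TPM of the 11 rows in Plcg2-/- and 46.7% ± 1.24 in Plcg2+/+ libraries.

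Snhg1 (chr19:8723475-8726443, plus strand) carries Snord22, which is needed for maturation of the small subunit RNA in Xenopus. It had 43.7, 40.3 and 34.6 TPM in Plcg2-/-, against 49.1, 35.4 and 55.3 TPM in Plcg2+/+ libraries. The spread in Plcg2+/+ spanned the whole Plcg2-/- range but for replicate 3, and the difference was -0.21 ± 0.18. Snhg6 (chr1:9941959-9944118, minus strand), host of Snord87, had 45.6, 45.9 and 41.8 TPM in Plcg2-/-, against 53.3, 39.1 and 61.1 TPM in Plcg2+/+ libraries. Its Plcg2+/+ range enclosed that of Plcg2-/-, and the difference was -0.18 ± 0.17. In both genes Plcg2+/+ replicate 2 was the lowest Plcg2+/+ library.

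Snhg5 (chr9:88521050-88522929, minus strand), host of the Snord50 pair, was lower in every Plcg2-/- library than in any Plcg2+/+ library. It had 12.1, 9.19 and 10.9 TPM in Plcg2-/-, against 20.0, 12.4 and 15.3 TPM in Plcg2+/+ libraries. The gap between the groups was narrow, since the highest Plcg2-/- and the lowest Plcg2+/+ library lay side by side. The means were 10.8 ± 1.48 and 15.9 ± 3.83 TPM (Plcg2-/- and Plcg2+/+, SD, n = 3 each), and the difference was -0.51 ± 0.19. Without Plcg2+/+ replicate 1, the highest library, it was -0.34.

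Snhg16 (chr11:116671660-116675799, plus strand), which holds Snord1a, Snord1b and Snord1c, had 9.16, 8.42 and 11.3 TPM in Plcg2-/-, against 15.0, 9.56 and 11.6 TPM in Plcg2+/+ libraries. Of the Plcg2-/- libraries 2 lay below all Plcg2+/+ values and replicate 3 did not, and the difference was -0.28 ± 0.19. Snhg12 (chr4:132308623-132311024, plus strand), the host of both classes, had 23.0, 25.8 and 25.6 TPM in Plcg2-/-, against 34.4, 23.0 and 36.1 TPM in Plcg2+/+ libraries. Its Plcg2-/- values were close to each other, while Plcg2+/+ replicate 2 sat with them and away from its own group. The difference was -0.30 ± 0.18.

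Among the H/ACA hosts, Snhg3 (chr4:132348014-132353686, minus strand) carries the Snora73 pair, whose Xenopus counterpart acts in cutting the ribosomal RNA precursor. It had 53.3, 61.2 and 50.8 TPM in Plcg2-/-, against 76.4, 44.4 and 54.1 TPM in Plcg2+/+ libraries, a difference of -0.05 ± 0.20. Snhg8 (chr3:123507552-123508404, minus strand) had 48.5, 50.5 and 37.3 TPM in Plcg2-/-, against 60.4, 35.0 and 43.7 TPM in Plcg2+/+ libraries, a difference of -0.0061 ± 0.22. In both genes the Plcg2+/+ range enclosed that of Plcg2-/-, and the differences were the smallest of the 11 rows. Snhg15 (chr11:6525591-6528760, minus strand) had 28.0, 24.6 and 17.1 TPM in Plcg2-/-, against 30.2, 24.1 and 23.7 TPM in Plcg2+/+ libraries, with -0.17 ± 0.20. Here it was Plcg2-/- replicate 3 that stood low.

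Snhg4, host of Snora74a, is on 2 rows whose annotated genes share a strand and a start region on chromosome 18, so reads over shared exons may have been divided between them and each row is uncertain. The row ENSMUSG00000117869 (35553371 to 35558316, plus strand) had 4.71, 3.55 and 5.15 TPM in Plcg2-/-, against 7.77, 8.19 and 7.62 TPM in Plcg2+/+ libraries. All Plcg2-/- values lay well below all Plcg2+/+ values, with means of 4.47 ± 0.830 TPM in Plcg2-/- and 7.86 ± 0.297 TPM in Plcg2+/+ (SD, n = 3 each) and a difference of -0.71 ± 0.15, the largest of the 11 rows. The row ENSMUSG00000117694 (35553404 to 35587708, plus strand), which GENCODE M21 names Gm28285 and types as protein coding, runs into the exons of Matr3. It had 0.953, 2.49 and 0.330 TPM in Plcg2-/-, against 1.92, 2.55 and 0.318 TPM in Plcg2+/+ libraries. The libraries there sorted by replicate number more than by genotype, and the difference was -0.20 ± 0.49.

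**Figure D1:**
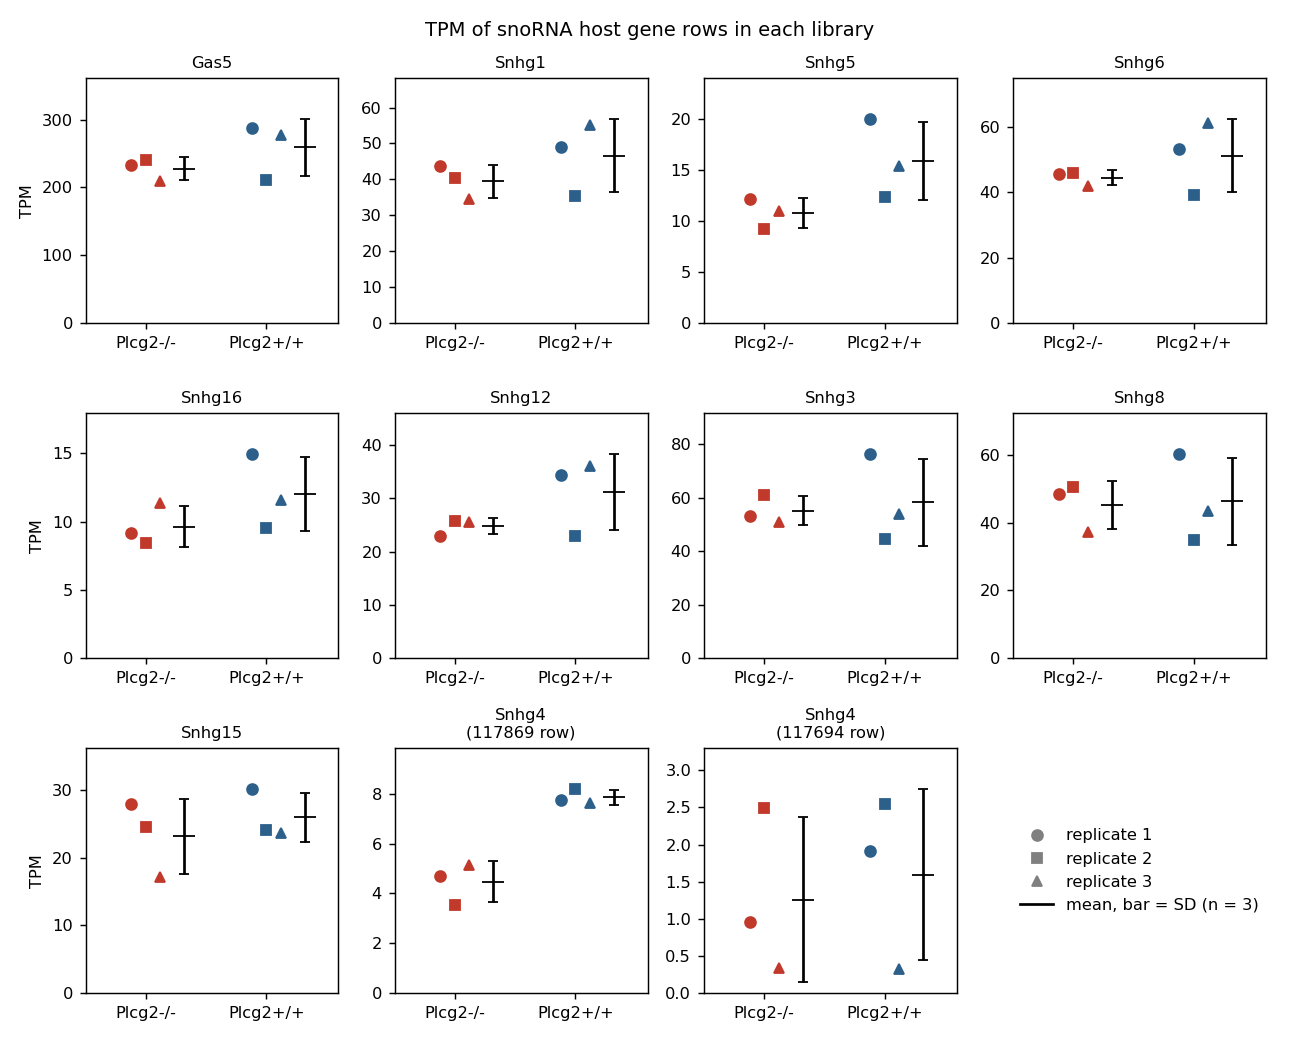
TPM (y axis, from 0) of the 11 snoRNA host rows in the 3 Plcg2-/- libraries (red) and the 3 Plcg2+/+ libraries (blue), with a marker shape per replicate number and the mean and SD in black. Snhg5 and the Snhg4 row ENSMUSG00000117869 are the 2 rows whose groups do not overlap, and the square of Plcg2+/+ replicate 2 is the lowest Plcg2+/+ value in 8 of the 11 rows.

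The order of the levels over all 6 libraries was Gas5 (243 TPM), Snhg3 (56.7), Snhg6 (47.8), Snhg8 (45.9), Snhg1 (43.1), Snhg12 (28.0), Snhg15 (24.6), Snhg5 (13.3), Snhg16 (10.8) and the Snhg4 rows (6.16 and 1.43). Neighbours in that order whose ranges did not overlap were Gas5 and Snhg3, Snhg16 and the higher Snhg4 row, and the Snhg4 rows themselves. Every other pair of neighbours overlapped. The 11 rows added up to 503, 513 and 444 TPM in Plcg2-/- and 637, 445 and 586 TPM in Plcg2+/+ libraries, which is 486 ± 37.2 and 556 ± 99.2 TPM (Plcg2-/- and Plcg2+/+, SD, n = 3 each). The sums overlapped, since Plcg2+/+ replicate 2 was close to the lowest Plcg2-/- library, replicate 3.

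All 11 rows passed the filter of a mean of at least 1 TPM, and all 11 had a log2 difference below 0, with a median of -0.20. Over the 12652 genes tested, 4117 (32.5%) had a difference below 0 and the median was 0.19. The members were chosen for lying low in this contrast, so neither this count nor the counts of calls that follow support anything about them. In limma over all genes, with Benjamini-Hochberg adjustment, 1 of the 11 rows was called at an adjusted p under 0.05, the Snhg4 row ENSMUSG00000117869, where 20.9% of all genes were called, 15.6% higher and 5.31% lower in Plcg2-/-. That call was lost without Plcg2+/+ replicate 1, without Plcg2+/+ replicate 2 and without Plcg2-/- replicate 1. With the replicate number as a block 2 of the 11 rows were called, Snhg5 being added, where 26.1% of all genes were. The groups did not overlap, with Plcg2-/- lower, in 2 of the 11 rows, where 10.9% of all genes did so. As no value lay at a threshold of the rule, there are no members just inside or outside it.

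The members' differences varied between the pairs of libraries that carry the same replicate number. Over all genes, the deviations of such libraries from their genotype means were weakly correlated (r of 0.147 to 0.295). In pair 1 all 11 rows were lower in Plcg2-/-, with a median difference of -0.51. In pair 2 only 4 of the 11 were lower and the median was 0.16, and in pair 3 10 were lower, with a median of -0.45. The median of all tested genes in pairs 1, 2 and 3 was 0.20, 0.20 and 0.14. Snhg5, Snhg16 and the Snhg4 row ENSMUSG00000117869 were lower in all 3 pairs. Without Plcg2-/- replicate 3, 7 of the 11 rows had a difference below 0 and the median was -0.12, and without Plcg2+/+ replicate 1 the numbers were 9 and -0.13. Without Plcg2+/+ replicate 2 they were 10 and -0.36, and without any other single library all 11 stayed below 0.

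**Figure D2:**
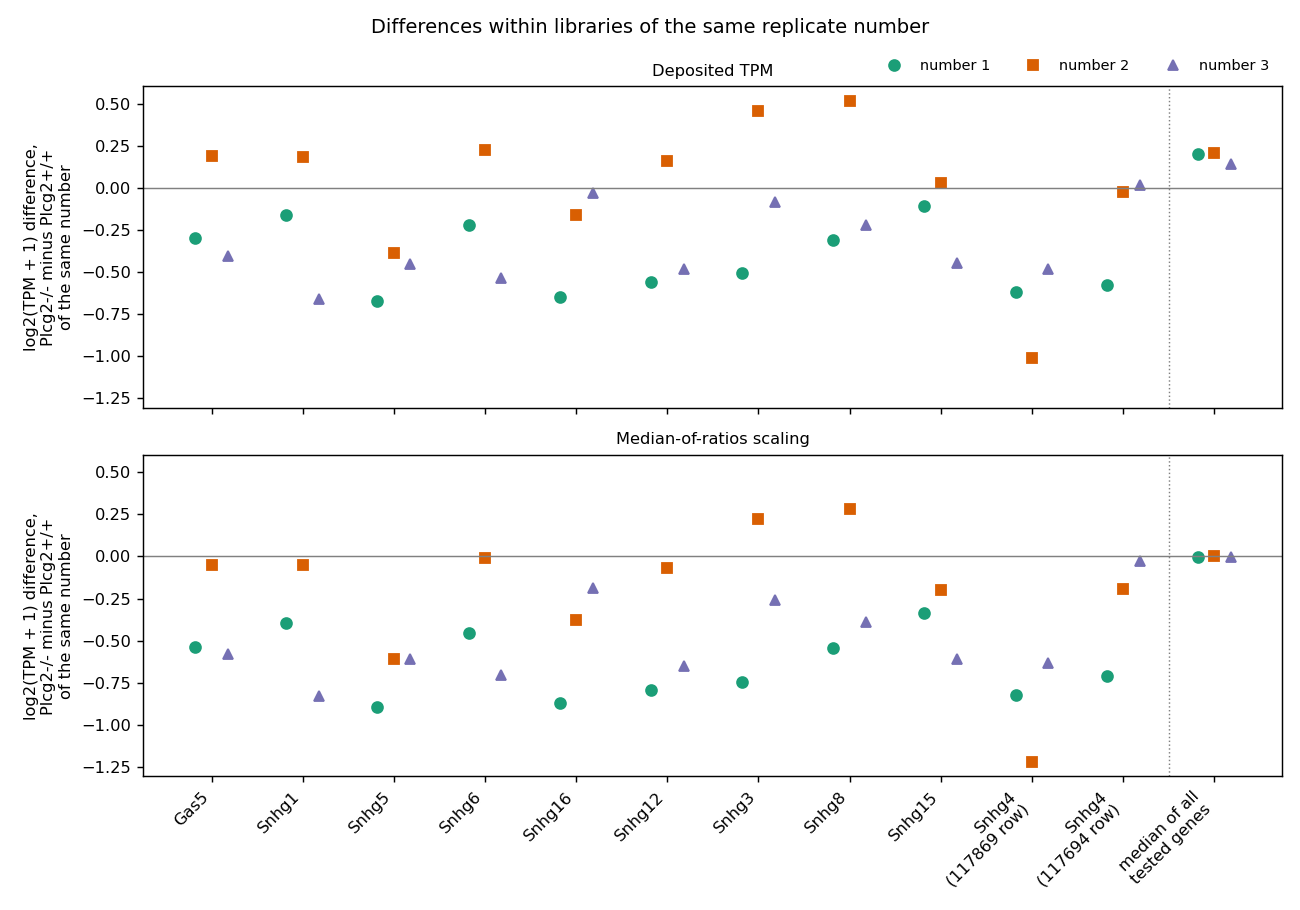
Difference on the log2(TPM + 1) scale (y axis), Plcg2-/- minus Plcg2+/+ of the same replicate number, for the 11 rows and for the median of all tested genes, from the deposited TPM (top) and after median-of-ratios scaling (bottom). In pair 2 (squares) only 4 rows lie below 0 in the top panel, against 11 in pair 1 and 10 in pair 3, while the median of all genes is between 0.14 and 0.20 in every pair.

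TPM is a share, so the scale of the rest of each library enters every value. The mitochondrially encoded genes took 5.00%, 8.23% and 8.68% of TPM in Plcg2-/- and 15.6%, 17.3% and 13.6% in Plcg2+/+ libraries, with no overlap. Rescaling without those genes gave a member sum of 525 ± 36.6 rescaled TPM in Plcg2-/- and of 657 ± 109 rescaled TPM in Plcg2+/+ libraries, and a median member difference of -0.31 where all genes had 0.07. Median-of-ratios scaling, which sets the typical gene equal, left all 11 rows below 0, from -0.89 to -0.22 with a median of -0.39, where 50.5% of all genes were below 0 with a median of -0.0045. After that scaling 9 of the 11 rows were lower in pair 2, with a median of -0.07, where that of all genes was 0. Both scalings lowered the differences of genes at large, so that rows chosen for lying below 0 stayed there is no sign of stability. The part of these shares in the result was not tested. In bulk RNA fewer cells that express a gene and less of it per cell cannot be told apart.

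**Figure D3:**
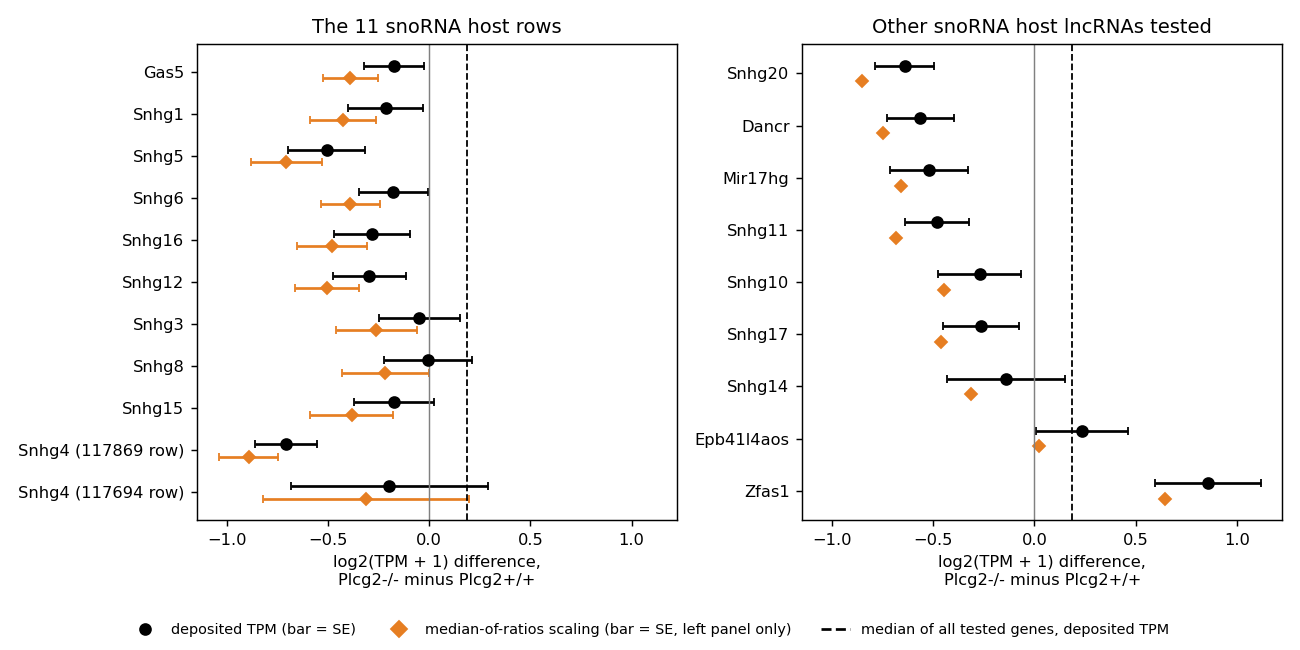
Difference on the log2(TPM + 1) scale (x axis, Plcg2-/- minus Plcg2+/+) of the 11 rows (left) and of the 9 other host lncRNAs tested (right), from the deposited TPM (black, bar = SE) and after median-of-ratios scaling (orange, bar = SE on the left only). Mir17hg, on the right, is known as a microRNA host. The dashed line is the median of all tested genes, 0.19, and every member lies to the left of 0 under both scalings, from -0.71 to -0.0061 and from -0.89 to -0.22.

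Plcg2 itself, the check on the labels, had 16.1, 16.7 and 16.1 TPM in Plcg2-/-, against 45.2, 39.7 and 54.9 TPM in Plcg2+/+ libraries, so part of the transcript remained (difference -1.45 ± 0.14, adjusted p = 0.00141 by limma). Of 10 microglia and macrophage markers 8 averaged at least 1 TPM, their sum was 1865 to 2312 TPM in Plcg2-/- and 2021 to 2973 TPM in Plcg2+/+ libraries, and 3 were called higher and 2 lower. Those called higher were P2ry12 (23.8 TPM in Plcg2-/-, against 5.68 TPM in Plcg2+/+), Fcrls (37.3 against 2.80 TPM) and Aif1 (99.6 against 19.0 TPM). Those called lower were Itgam (81.8 against 429 TPM) and Cx3cr1. Tmem119 and Sall1, which define microglia in the brain, averaged under 1 TPM in both genotypes, as did Cx3cr1 in Plcg2-/- (0.244 TPM, against 2.06 TPM in Plcg2+/+). The summed astrocyte markers were at 43.0 to 59.6 TPM in Plcg2-/- and 30.4 to 60.5 TPM in Plcg2+/+, oligodendrocyte markers at 47.6 to 84.9 and 50.1 to 116 TPM, neuron markers at 4.27 to 9.84 and 3.08 to 10.9 TPM, and fibroblast markers at 0.451 to 3.07 and 0.772 to 1.94 TPM (Plcg2-/- and Plcg2+/+ in each case). Within these overlapping sums the astrocyte marker Aldh1l1 was called higher (28.3 TPM in Plcg2-/-, against 12.3 TPM in Plcg2+/+). The oligodendrocyte lineage marker Cspg4 was called lower (0.471 TPM in Plcg2-/-, against 9.62 TPM in Plcg2+/+). The sum of the 5 endothelial markers (3.71 to 5.31 TPM in Plcg2-/- and 10.1 to 17.0 TPM in Plcg2+/+) and that of the 8 markers of dividing cells (160 to 200.2 TPM in Plcg2-/- and 206 to 219 TPM in Plcg2+/+) did not overlap between genotypes. The endothelial sum was carried by Flt1 (3.65 TPM in Plcg2-/- and 12.5 TPM in Plcg2+/+), while Tek, Pecam1, Cdh5 and Cldn5 averaged under 0.5 TPM in both. The sum for dividing cells was mostly Pcna (128 TPM in Plcg2-/- and 152 TPM in Plcg2+/+), Mki67 averaged 9.88 TPM in Plcg2-/-, against 7.54 TPM in Plcg2+/+, and none of the 8 was called by limma. The part of either sum in the members' differences was not tested.

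What the members share at their starts is shown by their promoters in RefSeq (GRCm38.p6), which hold 250 bases before the annotated start and 50 after it. The table gave 9 promoters for 8 of the 10 genes, 2 of them for Gas5, and none for Snhg4 and Snhg6. The letters TATA, starting 45 to 15 bases before the start, were found in 5 of the 9 promoters and in 7.22% of all 32851 promoters. The letters CTTT, a pyrimidine run like that of many TOP starts, were found within 20 bases of the start in 6 of the 9 promoters and in 17.1% of all promoters. Both together were found in 4 of the 9 promoters and in 1.52% of all promoters. Motifs and windows were chosen after these sequences had been seen, the gene's own strand was searched, the motifs share no bases here, and a match is not a shown site. The 4 promoters with both are given with TATA and CTTT in capitals: the second start of Gas5 (chr1:161034916-161035215, plus strand), Snhg5 (chr9:88522848-88523147, minus strand), Snhg8 (chr3:123508287-123508586, minus strand) and Snhg12 (chr4:132308428-132308727, plus strand).
Gas5: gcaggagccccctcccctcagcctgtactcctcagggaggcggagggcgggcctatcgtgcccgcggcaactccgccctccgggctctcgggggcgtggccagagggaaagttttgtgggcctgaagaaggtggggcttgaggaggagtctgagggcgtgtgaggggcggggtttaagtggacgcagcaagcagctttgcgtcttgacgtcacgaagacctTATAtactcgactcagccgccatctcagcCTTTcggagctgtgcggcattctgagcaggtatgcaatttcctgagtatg
Snhg5: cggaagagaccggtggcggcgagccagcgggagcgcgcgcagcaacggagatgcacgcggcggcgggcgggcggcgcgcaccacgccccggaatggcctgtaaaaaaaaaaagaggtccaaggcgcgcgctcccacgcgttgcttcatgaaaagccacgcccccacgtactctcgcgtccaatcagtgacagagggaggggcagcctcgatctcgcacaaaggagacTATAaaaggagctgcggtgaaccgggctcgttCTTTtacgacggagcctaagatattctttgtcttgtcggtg
Snhg8: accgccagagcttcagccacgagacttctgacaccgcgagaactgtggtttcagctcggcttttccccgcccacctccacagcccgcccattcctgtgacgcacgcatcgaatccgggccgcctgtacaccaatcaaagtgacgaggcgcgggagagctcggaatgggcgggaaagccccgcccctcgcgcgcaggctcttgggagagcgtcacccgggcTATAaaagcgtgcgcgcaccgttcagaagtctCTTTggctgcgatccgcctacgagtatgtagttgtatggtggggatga
Snhg12: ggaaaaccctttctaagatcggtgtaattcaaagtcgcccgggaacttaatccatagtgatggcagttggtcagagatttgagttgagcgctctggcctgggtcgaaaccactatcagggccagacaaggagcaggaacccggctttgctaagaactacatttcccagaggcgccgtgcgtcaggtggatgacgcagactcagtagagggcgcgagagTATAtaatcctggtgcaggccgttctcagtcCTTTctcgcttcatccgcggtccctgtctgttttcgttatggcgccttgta
The TATA begins 29, 23, 30 and 32 bases before the annotated start in Gas5, Snhg5, Snhg8 and Snhg12. Of the others, Snhg1 had TATA alone, Snhg15 and Snhg16 had CTTT alone, and Snhg3 and the first start of Gas5 had neither within these windows. Among the 4 genes with both motifs, the differences between genotypes ran from -0.51 (Snhg5) to -0.0061 (Snhg8).

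Genes that share the members' promoter regions or overlap them were tested, since none was used to choose the members. None of the 4 with a mean of at least 1 TPM was called by limma, and 2 were higher and 1 lower in Plcg2-/- at an unadjusted p under 0.05. Slc3a2, the heavy chain of amino acid transporters, starts 106 bases from Snhg1 on the other strand. It averaged 247 ± 32.1 TPM in Plcg2-/- and 330 ± 47.5 TPM in Plcg2+/+ (SD, n = 3 each), a difference of -0.41 with an adjusted p of 0.0984 by limma. With the replicate block and median-of-ratios scaling together Slc3a2 was the 1 neighbour called. Rcc1, the exchange factor of the GTPase Ran, overlaps Snhg3 on its strand, and its difference of 0.35 (adjusted p = 0.103 by limma) was opposite in sign to that of Snhg3. Matr3, a nuclear matrix protein that the lower Snhg4 row overlaps, had 0.32 (adjusted p = 0.0849 by limma), and Mcmdc2, which overlaps Snhg6, had -0.02 (adjusted p = 0.958 by limma). Where genes overlap, and as no strand setting is given in the sources used here, reads may be assigned to the wrong partner. Zbtb37, which starts 427 bases from Gas5 on the other strand, and St6galnac2, which overlaps Snhg16, were below the filter.

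The lists that follow are read against all 12652 genes, of which 67.5% had a difference above 0 and 32.5% below 0, 15.6% were called higher and 5.31% lower, and 28.5% were higher and 9.13% lower at an unadjusted p under 0.05, with a median of 0.19. With the replicate block 26.1% of all genes were called. No share of calls over all genes is given for the other settings or with a library left out. Shifts in a list's calls there are therefore not set against one. Of 13 further long noncoding host transcripts listed, 12 were in the table and 9 were tested. Of the 9, 7 had a difference below 0 (32.5% of all genes), the median was -0.27, and 4 had groups that did not overlap with Plcg2-/- lower (10.9% of all genes). Mir17hg, a microRNA host, is in both counts. Snhg10, Snhg11, Snhg14, Snhg17 and Snhg20 belong to the Snhg family whose lower level led to the choice of the members. The counts over the 9, and the p-values of these Snhg genes, are therefore not independent of that choice. Snhg20 fell to 53.1 ± 9.77 TPM in Plcg2-/-, against 82.6 ± 4.05 TPM in Plcg2+/+ (SD, n = 3 each; difference -0.64, adjusted p = 0.0240 by limma), the 1 call among the 9. By library it had 48.1, 64.4 and 46.8 TPM in Plcg2-/- and 85.3, 77.9 and 84.4 TPM in Plcg2+/+. That call was lost without Plcg2+/+ replicate 1, Plcg2+/+ replicate 2, Plcg2-/- replicate 1 or Plcg2-/- replicate 3, with an adjusted p of up to 0.0992 by limma. Without Plcg2-/- replicate 2 there were 2 calls, Snhg20 and Dancr, and without Plcg2-/- replicate 3 the 1 call was Zfas1. With the replicate block 4 of the 9 were called, 3 lower and 1 higher. The lower ones were Snhg20, Dancr (host of Snora26; difference -0.56, adjusted p = 0.0519, and 0.0447 with the block, by limma) and Snhg11 (difference -0.48, adjusted p = 0.0739, and 0.0348 with the block, by limma).

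The higher one was Zfas1, the host of the Snord12 group and after Gas5 the most abundant host lncRNA measured here. It had 285, 229 and 150 TPM in Plcg2-/-, against 137, 92.6 and 128 TPM in Plcg2+/+ libraries. The groups did not overlap, and the difference was 0.86 (adjusted p = 0.0578, and 0.0457 with the block, by limma), opposite in sign to all 11 member rows. After median-of-ratios scaling it was 0.64 (adjusted p = 0.138 by limma), while Snhg20, Dancr and Snhg11 were called lower. Mir17hg, on the list but known as the host of a microRNA cluster, had a difference of -0.52 (adjusted p = 0.0963 by limma). Snhg10 (-0.27), Snhg17 (-0.26), Snhg14 (-0.14) and Epb41l4aos (0.24) had adjusted p-values of 0.377, 0.347, 0.760 and 0.483 by limma. Snhg14 turned to 0.037 without Plcg2-/- replicate 1, and Epb41l4aos to -0.0016 without Plcg2+/+ replicate 2. Snhg9, Snhg18 and Mir155hg were below the filter and Snhg7 was not found by symbol.

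Protein-coding hosts release snoRNAs from the introns of translated mRNAs. Of 43 tested, 37 had a difference above 0, where 67.5% of all genes did, and the median was 0.34, where that of all genes was 0.19. With 3 called higher and none lower, the share of calls was below that of all genes, of which 15.6% were called higher. Hspa8, the constitutive Hsp70 chaperone, rose to 1244 ± 123 TPM in Plcg2-/-, against 738 ± 141 TPM in Plcg2+/+ (SD, n = 3 each; difference 0.76, adjusted p = 0.0236 by limma). Tpt1 (difference 0.63, adjusted p = 0.0425, and 0.0593 with the replicate block, by limma) and Cfdp1 (0.43, adjusted p = 0.0447 by limma) also rose. At an unadjusted p under 0.05, 16 were higher and 1 lower, where 28.5% of all genes were higher. After median-of-ratios scaling the median was 0.13 and 1, Hspa8, was called. Without Plcg2+/+ replicate 3 there were 11 calls, all higher; without Plcg2-/- replicate 2 there were 1 higher and 1 lower; and without any other single library there were 0.

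The cytosolic ribosomal proteins share the TOP start with the host family. The list overlaps the preceding one, since 23 of the 43 protein-coding hosts are ribosomal protein genes, so the 2 are not separate results. Of 82 tested, 80 had a difference above 0, where 67.5% of all genes did, and the median was 0.44 (0.23 after median-of-ratios scaling). With the replicate block 4 were called higher, where 26.1% of all genes were called in either direction. In the fit reported 2 were called higher, where 15.6% of all genes were called higher. These 2 were Rpl29 (difference 0.76, adjusted p = 0.0316 by limma) and Rpl7l1, which is named for its likeness to Rpl7 (0.51, adjusted p = 0.0405 by limma). At an unadjusted p under 0.05, 36 were higher and 1 lower, and after median-of-ratios scaling none was called. Calls numbered 25, all higher, without Plcg2+/+ replicate 3, 1 higher without Plcg2+/+ replicate 2, 1 lower without Plcg2-/- replicate 2, and 0 without Plcg2+/+ replicate 1, Plcg2-/- replicate 1 or Plcg2-/- replicate 3. Ribosomal protein genes took 8.19%, 8.01% and 7.98% of TPM in Plcg2-/- and 6.25%, 4.43% and 7.25% in Plcg2+/+ libraries. The groups did not overlap, and Plcg2+/+ replicate 2, the lowest Plcg2+/+ library for most members, was also the lowest here.

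**Figure D4:**
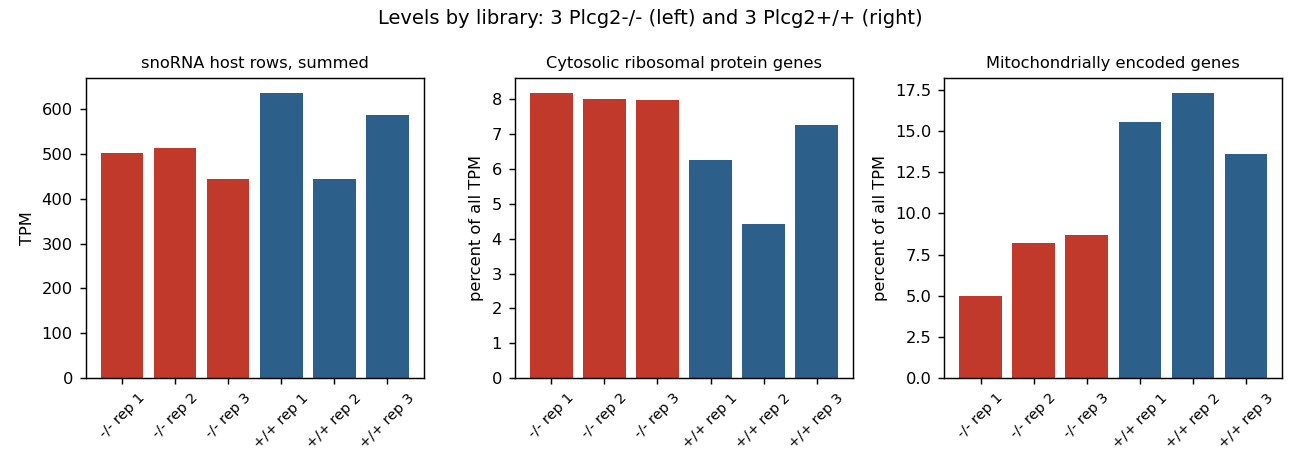
Summed TPM of the 11 snoRNA host rows (left), and percent of all TPM in cytosolic ribosomal protein genes (middle) and in mitochondrially encoded genes (right), for each of the 3 Plcg2-/- (red) and 3 Plcg2+/+ (blue) libraries. The host sum overlaps between genotypes (444 to 513 TPM in Plcg2-/- and 445 to 637 TPM in Plcg2+/+), while both shares separate them in opposite directions.

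Core subunits of the snoRNA particles and factors linked to their assembly were tested as a list of 20 genes. Of these 3 were called higher, 0 lower, and the median was 0.24 (0.05 after median-of-ratios scaling); at an unadjusted p under 0.05, 8 were higher and 0 lower. Tcof1, the nucleolar protein treacle of ribosomal DNA transcription, rose to 26.5 ± 1.87 TPM in Plcg2-/-, against 11.4 ± 1.53 TPM in Plcg2+/+ (SD, n = 3 each; difference 1.15, adjusted p = 0.00243 by limma), and stayed called when any 1 library was left out. Aqr, the intron-binding helicase that ties splicing to C/D snoRNP assembly, rose by 0.60 (adjusted p = 0.0128 by limma; not called without Plcg2+/+ replicate 1, Plcg2-/- replicate 1 or Plcg2-/- replicate 3). The C/D assembly factor Nufip1 rose by 0.54 (adjusted p = 0.0295, and 0.0844 after median-of-ratios scaling, by limma; not called without those libraries or without Plcg2+/+ replicate 2).

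The core proteins of the mature particles were not called. Of the C/D core, the methyltransferase Fbl had a difference of 0.40 (adjusted p = 0.0695 by limma), and it was called without Plcg2+/+ replicate 3 (0.0394). Nop56 had -0.0032 (adjusted p = 0.990 by limma), and its sign turned when Plcg2+/+ replicate 1, Plcg2+/+ replicate 3 or Plcg2-/- replicate 1 was left out. Nop58 (0.19) and Snu13 (0.12) had adjusted p-values of 0.452 and 0.586 by limma, and both turned negative, to -0.020 and -0.089, after median-of-ratios scaling. Of the H/ACA core, the pseudouridine synthase Dkc1 had 0.16 (adjusted p = 0.479 by limma) and -0.034 after that scaling. Nop10 had 0.57 (adjusted p = 0.118, and 0.0451 with the replicate block, by limma), Nhp2 0.54 (adjusted p = 0.0524 by limma) and Gar1 -0.58 (adjusted p = 0.230 by limma). Nop10 and Nhp2 were called without Plcg2+/+ replicate 3 (0.0161 and 0.0282). Calls of the whole list numbered 7 without Plcg2+/+ replicate 3, and 1 without Plcg2+/+ replicate 1, Plcg2-/- replicate 1 or Plcg2-/- replicate 3.

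Nonsense-mediated decay removes spliced host exons that ribosomes have read. Of 22 decay factors, 2 were called higher and 0 lower, with a median of 0.26 (0.05 after median-of-ratios scaling, with no call), and 11 were higher and 0 lower at an unadjusted p under 0.05. Xrn1, the 5' to 3' exonuclease, rose to 11.1 ± 2.16 TPM in Plcg2-/-, against 6.38 ± 0.163 TPM in Plcg2+/+ (SD, n = 3 each; difference 0.70, adjusted p = 0.0244 by limma). The central helicase Upf1 had 0.32 (adjusted p = 0.0540 by limma), its partner Upf2 0.33 (adjusted p = 0.0835 by limma) and the kinase Smg1 0.19 (adjusted p = 0.239 by limma), which was -0.012 after median-of-ratios scaling. No factor was called without Plcg2+/+ replicate 1, Plcg2+/+ replicate 2, Plcg2-/- replicate 1 or Plcg2-/- replicate 3, and 4 were without Plcg2+/+ replicate 3.

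Of 13 tested transcripts that decay is known to lower, 2 of which are members (Gas5 and Snhg12), 1 was called higher and 1 lower, with a median of 0.16 (-0.05 after median-of-ratios scaling). With the replicate block there were 2 in each direction. Atf3, a stress transcription factor, fell to 81.3 ± 8.32 TPM in Plcg2-/-, against 195 ± 59.6 TPM in Plcg2+/+ (SD, n = 3 each; difference -1.21, adjusted p = 0.0125 by limma; not called without Plcg2+/+ replicate 1, Plcg2-/- replicate 1 or Plcg2-/- replicate 3). Sesn2, a stress-induced restrainer of mTORC1, rose by 1.04 (adjusted p = 0.0151 by limma; not called without Plcg2+/+ replicate 2 or Plcg2-/- replicate 1). Calls of the list numbered 0 without Plcg2-/- replicate 1, 1 without Plcg2+/+ replicate 1 or Plcg2+/+ replicate 2, and 3 without Plcg2-/- replicate 3.

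Regulators of mTOR control the translation of TOP mRNAs. Of 21 tested, 7 were called higher and 0 lower, where 15.6% of all genes were called higher, the median was 0.34 (0.13 after median-of-ratios scaling, with 4 called higher), and 10 were higher and 1 lower at an unadjusted p under 0.05. The Rag GTPases, which bring mTORC1 to the lysosome, rose: Rragd to 11.3 ± 0.632 TPM in Plcg2-/-, against 5.53 ± 0.851 TPM in Plcg2+/+ (SD, n = 3 each; difference 0.92, adjusted p = 0.00647 by limma), and Rragc by 0.74 (adjusted p = 0.0200 by limma). Larp1, which binds TOP mRNAs, rose by 0.62 (adjusted p = 0.0184 by limma), and Eif4ebp1, the translation repressor that mTORC1 inactivates, by 0.76 (adjusted p = 0.0258 by limma). Rragd stayed called when any 1 library was left out. The other 3 were not called without Plcg2+/+ replicate 1, Plcg2-/- replicate 1 or Plcg2-/- replicate 3, and Rragc and Eif4ebp1 also not without Plcg2+/+ replicate 2. The list had 1 call without Plcg2+/+ replicate 1 or Plcg2-/- replicate 1, 2 without Plcg2+/+ replicate 2, 3 without Plcg2-/- replicate 3, 4 without Plcg2-/- replicate 2 and 5 without Plcg2+/+ replicate 3.

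The 30 genes of RNA polymerase I and ribosome assembly, the pathway that uses snoRNAs, were called in both directions, 2 higher and 1 lower, with a median of 0.13 (-0.08 after median-of-ratios scaling). At an unadjusted p under 0.05, 6 were higher and 4 lower, and with the replicate block 3 were called higher and 2 lower. Utp20, of the small subunit processome, fell by 0.55 (adjusted p = 0.0327 by limma). Pes1, of large subunit assembly, rose by 0.49 (adjusted p = 0.0459 by limma), and the polymerase I initiation factor Rrn3 by 0.47 (adjusted p = 0.0477 by limma). After median-of-ratios scaling 2 were called lower and 0 higher. Calls of the list numbered 0 without Plcg2+/+ replicate 1 or Plcg2-/- replicate 1, 1 without Plcg2+/+ replicate 2, Plcg2-/- replicate 2 or Plcg2-/- replicate 3, and 3 without Plcg2+/+ replicate 3. Rrn3 was not called without any 1 of the 6 libraries.

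A list of other nuclear or abundant RNAs, here called other lncRNAs, was set beside the members. Rmrp and Ptprv, both tested, are not long noncoding RNAs of the members' kind, so the list is no clean comparison for the class of transcript. Of 16 listed, 10 were tested, 0 were called higher and 2 lower, the median was -0.47 (-0.62 after median-of-ratios scaling), and 2 were higher and 3 lower at an unadjusted p under 0.05. Neat1, the scaffold of nuclear paraspeckles, fell to 188 ± 61.7 TPM in Plcg2-/-, against 470.1 ± 145 TPM in Plcg2+/+ (SD, n = 3 each; difference -1.32, adjusted p = 0.0208 by limma; not called without Plcg2+/+ replicate 2, Plcg2-/- replicate 1 or Plcg2-/- replicate 3). Pvt1, the neighbour of Myc, fell by 0.89 (adjusted p = 0.0150 by limma; not called without Plcg2+/+ replicate 1 or Plcg2-/- replicate 1). The median of this list was below that of the members (-0.20), and the lists were not tested against each other. At a mean of at least 5 TPM the order turned, with -0.11 over 4 genes of this list and -0.20 over 10 member rows. Calls of the list numbered 0 without Plcg2-/- replicate 1, 4 without Plcg2-/- replicate 2 and 1 without Plcg2+/+ replicate 1, Plcg2+/+ replicate 2 or Plcg2-/- replicate 3.

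The members varied together over the 6 libraries to differing degrees. Their mean z-score was highest in Plcg2+/+ replicate 1 (1.17), where no row was below its own mean, and lowest in Plcg2-/- replicate 3 (-0.76), where 10 of the 11 rows were. Plcg2+/+ replicate 2 had -0.48, below Plcg2-/- replicate 1 (-0.21) and Plcg2-/- replicate 2 (-0.23), and Plcg2+/+ replicate 3 had 0.51. As a description over 6 libraries that share genotype and scaling, Pearson's r of a row with the mean of the other rows was 0.95 for Gas5, 0.83 for Snhg5, 0.80 for Snhg1, 0.79 for Snhg12 and 0.62 to 0.76 for Snhg6, Snhg3, Snhg8, Snhg16 and Snhg15. It was 0.36 for the Snhg4 row ENSMUSG00000117869 and -0.04 for the other Snhg4 row, so Snhg4 did not follow the rest. The genes most like the members' mean by the same measure were AI480526 (0.999), Mbd6 (0.994), Hdac3 (0.984), Bet1 (0.978) and Polrmt (0.976), picked from 12652 genes over 6 libraries. Their own differences were between -0.29 (Polrmt) and -0.07 (Hdac3), and none was called by limma.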

How the data were processed

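Gene-level TPM for 6 libraries, in a table of 54347 rows whose columns each sum to 1000000, were deposited by the authors. The submitters' processing notes name Salmon 1.3.0, then DESeq2 1.30.1 and R 4.0.4, and the build GRCm38.p6; neither the annotation release nor how TPM was derived is given in the sources used here. Titles gave genotype and replicate number. For the report, log2(TPM + 1) of the 12652 rows with a mean of at least 1 TPM was fitted with limma (version 3.58.1, R 4.3.3), on all 6 libraries without a block, as a two-sided moderated test with a prior variance that follows the mean (residual degrees of freedom 4, prior 2.97). P-values were adjusted by Benjamini-Hochberg over all these rows, with 0.05 as the threshold. The fit was tested on simulated data. Other software was pandas 2.3.3, numpy 2.4.6 and matplotlib 3.10.9 under Python 3.11.15. GENCODE M21 (GRCm38), which held 54094 of the identifiers, was the source of positions and snoRNA sequences.

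The members and the 9 companion lists were chosen with earlier results of these data known. Named are Plcg2, all members, up to 4 called genes with the smallest p per list, fixed core subunits, the tested further host lncRNAs, the promoter neighbours (starts within 1000 bases on the other strand, or overlapping), and the 5 genes most correlated with the members. Members and predicted genes were left out of that last choice. Of the genes this rule names, 1 is not reported here. Libraries of equal replicate number had weakly correlated deviations from their genotype means (r of 0.295, 0.193 and 0.147), all above the limit of 0.1, while r for unequal numbers ran from -0.195 to 0.0037. Deviations from a mean of 3 libraries are tied to each other, and no chance level of r was worked out. The pairing by the numbers in the titles is therefore a working choice. The fit with a block is given where it changes the call of a named gene or moves a count of calls by over 1.5 times. Scalings were the deposited TPM, median-of-ratios over tested rows above 0 in every library, and TPM rescaled without mitochondrially encoded rows.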

Additional observations from a re-analysis of the deposited data

How the results depend on the processing

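Every fit keeps 3 libraries per genotype or fewer, TPM keeps no depth, and rows that share exons are uncertain; these limit what any difference here can show. The settings below are no test of the members' direction, since the members were chosen for it, the block leaves the fitted differences as they were, and both other scalings lower genes at large. Member rows called numbered 1 in the fit reported, where 20.9% of all genes were called, and 2 with the replicate block, where 26.1% were. They numbered 2 with median-of-ratios scaling, 2 with that scaling and the block together, 0 without a filter and 0 to 1 when 1 library was left out. No share of all genes called is given for these last settings, so nothing is read from their counts. The counts of called genes in the lists moved as follows, without the share over all genes beside them, and the cause was not tested.

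With median-of-ratios scaling calls numbered 3 for the further host lncRNAs, 1 for protein-coding hosts, 0 for decay factors, 4 for mTOR and TOP regulators and 0 for ribosomal proteins. Without a filter they numbered 0 for protein-coding hosts, 1 for decay factors, 0 for ribosome assembly, 3 for mTOR and TOP regulators, 1 for other lncRNAs and 0 for ribosomal proteins. At a mean of at least 5 TPM they numbered 2 for the further host lncRNAs, 5 for snoRNP proteins, 5 for decay factors, 5 for ribosome assembly and 4 for ribosomal proteins. Without mitochondrially encoded rows they numbered 3 for the further host lncRNAs, 1 for protein-coding hosts, 1 for ribosome assembly, 4 for mTOR and TOP regulators and 0 for ribosomal proteins. With the replicate block, for which the pairing check is given with the methods, they numbered 4 for the further host lncRNAs, 4 for decay-sensitive transcripts, 5 for ribosome assembly and 4 for ribosomal proteins. With the replicate block and median-of-ratios scaling they numbered 3 for the further host lncRNAs, 0 for protein-coding hosts, 4 for decay-sensitive transcripts, 4 for other lncRNAs, 0 for ribosomal proteins and 1 for promoter neighbours.

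Leaving out 1 library at a time gave 0 to 2 calls for the further host lncRNAs, 0 to 11 for protein-coding hosts, 1 to 7 for snoRNP proteins, 0 to 4 for decay factors, 0 to 3 for decay-sensitive transcripts, 0 to 3 for ribosome assembly, 1 to 5 for mTOR and TOP regulators, 0 to 4 for other lncRNAs and 0 to 25 for ribosomal proteins. Signs turned, none of them in a called gene, for Nop58 (-0.020), Snu13 (-0.089), Dkc1 (-0.034) and Smg1 (-0.012) with median-of-ratios scaling, with or without the replicate block, and for Snu13 (-0.0088) without mitochondrially encoded rows. With 1 library left out at a time the difference ran from -0.15 to 0.10 for Nop56, from -0.19 to 0.093 for Mcmdc2, from -0.0016 to 0.46 for Epb41l4aos and from -0.44 to 0.037 for Snhg14.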
